A study of Mus musculus with 8 samples.

Results

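The 10 genes described here encode the subunits of the transcription factor NF-kB and the proteins that restrain it. They were taken by name from the deposited table of 11996 genes, all 10 were present, each on 1 row, and all 10 had a mean high enough to be kept, as 11400 genes did. The subunits are Nfkb1, Nfkb2, Rel, Rela and Relb, and the inhibitors are Nfkbia, Nfkbib, Nfkbie, Nfkbiz and Tnfaip3. RNA was sequenced from peritoneal macrophages of C57BL/6 mice, elicited with thioglycolate and left to adhere to plastic for 24 h. The 4 groups of 2 samples were wild type or Ptpn1-/- cells, each mock-treated or given IL-10 at 100 ng/ml for 4 h. Ptpn1 encodes the tyrosine phosphatase PTP1B, and the labels name no stimulus beyond thioglycolate, adherence and IL-10. Neither the age of the mice, nor the cells in which the deletion acts, nor whether samples came from separate mice is given in the sources used here.

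NF-kB is a dimer of Rel-family proteins. In resting macrophages the I-kappa-B inhibitors hold most of it in the cytoplasm, and signals from Toll-like or TNF receptors activate the IKK kinases, which mark the inhibitors for destruction and free the dimer to enter the nucleus. Many genes of the circuit, the inhibitors among them, are themselves transcribed in response to NF-kB, so that the pathway restrains itself. IL-10 acts through STAT3 and lowers inflammatory gene expression in macrophages. The values below are mRNA signals, which say nothing of protein level, degradation of the inhibitors or nuclear entry.

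Each value is the authors' signal for a group, a normalized number with no stated unit, written here as units and taken to be the mean of the 2 samples because all values are multiples of 0.5. The table used here holds 1 value per gene and group, so no spread between replicates, SD or p-value can be given, the sequencing depth is unknown, and no difference below could be set against replicate error. Differences are given as log2 ratios after adding 26.7 units to each signal, which understates the change of low genes. The columns share nearly the same distribution: each has the highest value 362618 units, and values at the same rank differed from the mock-treated wild type by a median of 0.574%, 1.19% and 1.61% in the other columns. A ratio here therefore follows a gene's change in rank among all genes, and a change shared by most genes would not show. Macrophage markers had high signals in all groups: Emr1, which encodes F4/80, lay between 10088.5 and 11367 units, and all 7 fixed markers had a row. Socs3, a STAT3 target, had a log2 ratio with IL-10 of 3.28 in wild-type cells and of 3.46 in knockout cells. Ptpn1 itself had a knockout to wild type log2 ratio of -0.37 in mock-treated cells and -0.32 with IL-10. Its signal was thus lower but present in the columns labelled knockout. The part of the gene that was deleted is not given in the sources used here, so this checks the genotype labels only weakly.

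The promoters of the members that moved most are shown first, because NF-kB genes are known to carry binding sites for NF-kB itself. RefSeq promoter sequences (GRCm38.p6, 250 bases before to 50 after a listed start) matched 7 of the 10 members by symbol, with 10 entries in all. The entries missing are those of Nfkb1, Relb and Nfkbiz. Each entry held was searched on both strands for the kappa-B consensus (GGG, then a purine, any base, A or T, a pair of pyrimidines, and CC) and for the STAT-type motif TTCNNNGAA. The 150 bases before the start are printed for Nfkbia and Nfkbie, which were higher with IL-10, for Tnfaip3, which was lower, and for Nfkb2, which held both motifs. Capitals mark the matches, and only entries with a kappa-B match are printed.
Nfkbia, chr12:55492648-55492797, minus strand: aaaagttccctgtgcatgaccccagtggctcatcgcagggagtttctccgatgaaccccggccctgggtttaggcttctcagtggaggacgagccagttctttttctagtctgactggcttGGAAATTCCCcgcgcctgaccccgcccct
Nfkbie, chr17:45555550-45555699, plus strand: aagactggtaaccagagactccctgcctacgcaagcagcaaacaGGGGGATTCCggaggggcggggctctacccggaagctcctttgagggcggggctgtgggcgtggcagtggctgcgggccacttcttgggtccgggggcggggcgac
Tnfaip3, chr10:19015411-19015560, minus strand: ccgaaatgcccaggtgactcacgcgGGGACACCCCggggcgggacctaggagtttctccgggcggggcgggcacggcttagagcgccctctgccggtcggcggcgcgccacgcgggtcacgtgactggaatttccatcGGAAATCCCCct
Nfkb2, chr19:46304587-46304736, plus strand: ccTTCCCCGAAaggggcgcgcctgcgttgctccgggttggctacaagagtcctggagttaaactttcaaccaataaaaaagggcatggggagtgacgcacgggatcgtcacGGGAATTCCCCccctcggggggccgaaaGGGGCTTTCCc

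A kappa-B match stood in at least 1 listed promoter of 5 of these 7 members, against 6.40% of the 8235 kept genes with an entry and 4.51% of all 32851 entries. In Nfkbia the match lay at positions -29 to -20 relative to the listed start, and in Nfkbie at -106 to -97. The first listed start of Tnfaip3 had matches at -125 to -116 and at -12 to -3, and its second start had none. Rel had matches that overlap at -92 to -82. Nfkb2 had matches at each of its 3 listed starts, overlapping ones at -39 to -29 of the first. Rela and Nfkbib had no match in this window. The genes with matches thus include Nfkbia, Nfkbie and Nfkb2, which were higher with IL-10, and Tnfaip3, which was lower. Rel, the other gene with matches, had log2 ratios with IL-10 of -0.08 in wild-type cells and -0.15 in knockout cells. Rela, without a match, was higher in both genotypes, as were Relb and Nfkbiz, which have no entry. TTCNNNGAA was found in 1 of the 7, Nfkb2, at -148 to -140 of its first start, against 8.27% of the kept genes. A match of letters is no evidence of binding, and which start the cells used was not tested.

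**Figure D1:**
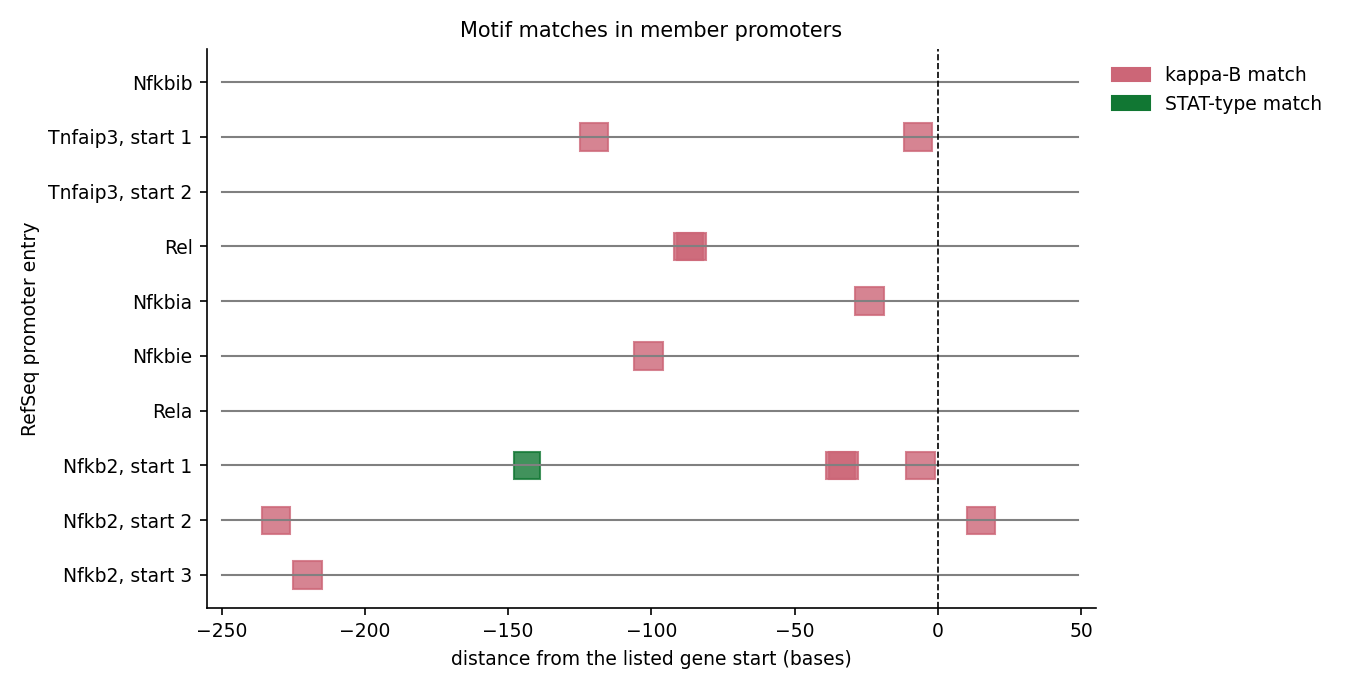
Matches to the kappa-B consensus (red) and to TTCNNNGAA (green) in the 10 RefSeq promoter entries of 7 members. The x axis gives the distance from each listed gene start in bases, the dashed line marks the start, grey lines span the searched sequence, and overlapping matches are drawn over each other. Matches to kappa-B lie in entries of Tnfaip3, Rel, Nfkbia, Nfkbie and Nfkb2.

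IL-10 went with modest differences in this family, and the inhibitors were spread more widely than the subunits, from -0.36 to 0.44 on the log2 scale in wild type against -0.08 to 0.26. With IL-10, Nfkbia and Nfkbie were higher and Tnfaip3 was lower in both genotypes, while Nfkb1 and Nfkbib lay between -0.05 and 0.02. Rela and Nfkb2 were slightly higher in both. In wild type 7 of the 10 members had a ratio above 0, as 49.6% of all kept genes did, and in the knockout also 7 of 10, beside 45.2%. The members' median log2 ratio was 0.16 in wild-type cells and 0.09 in knockout cells, beside medians of 0.00 and -0.01 over all kept genes. No member reached 1.5-fold in either genotype, a size that 1.54% of kept genes reached upward and 0.412% downward in wild type, beside 2.32% and 0.807% in knockout cells. A smaller limit of 1.25-fold was therefore added after the values had been seen. In wild type it was reached upward by 2 of the 10 members (Nfkbia and Nfkbie), beside 4.65% of kept genes, and downward by 1 (Tnfaip3), beside 4.24%. In the knockout 1 member (Nfkbia) reached it upward, beside 5.95%, and 1 (Tnfaip3) downward, beside 4.46%. The genotypes' responses come from separate columns, and 8 of 10 members had the same sign in both, as did 66.7% of kept genes. Nfkb1 and Nfkbib, both with ratios near 0, were the exceptions. With the trend of the ratios over transcript length subtracted they had the same sign in both genotypes, and Rel (0.03 and -0.10) did not. Over the 2799 kept genes with the shortest transcripts the median log2 ratio with IL-10 was 0.07 in wild type and 0.01 in the knockout. Over the 2800 with the longest it was -0.09 and -0.05.

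Nfkbia (ENSMUSG00000021025; mm9 chromosome 12, 56590398 to 56593634, minus strand) encodes I-kappa-B alpha, the inhibitor that NF-kB rapidly resynthesizes after activation. Wild-type cells had 1410.0 units under mock and 1922.5 with IL-10, and knockout cells had 1768 and 2283.5. Both IL-10 groups were above both mock groups. The log2 ratio was 0.44 in wild type, higher than that of 97.5% of kept genes, and 0.36 in the knockout, higher than that of 95.04%. Nfkbie (ENSMUSG00000023947; chromosome 17, 45692665 to 45700118, plus strand) encodes I-kappa-B epsilon, which also traps dimers in the cytoplasm. Wild-type cells had 324.5 units under mock and 426.5 with IL-10, and knockout cells 327.5 and 414.5, so the mock groups were nearly level and both IL-10 groups lay above them. Its log2 ratios were 0.37 and 0.32, the latter just short of 1.25-fold.

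Tnfaip3 (ENSMUSG00000019850; chromosome 10, 18727073 to 18728651, minus strand) encodes A20, a ubiquitin-editing enzyme that shuts off signalling upstream of IKK. It was the member with the largest downward ratio in both genotypes, going from 1714.5 units under mock to 1330.5 with IL-10 in wild-type cells and from 1658.5 to 1128 in knockout cells. The IL-10 groups were the 2 lowest, with the knockout below wild type. The log2 ratio was -0.36 in wild type, below that of 97.0% of kept genes, and -0.55 in the knockout, below that of 99.0%. With the trend of the ratios over transcript length subtracted they were -0.27, which is short of 1.25-fold, and -0.50. Its row in the deposited table spans 1579 bases, 10.9% of the 14501 bases of the RefSeq gene on GRCm38, so the value may come from a part of the gene. The length trend was read at 6199 bases, its longest transcript, which is longer than that row. The values with the trend subtracted may therefore not suit Tnfaip3. For the other inhibitors the row spanned at least 99.6% of the RefSeq gene.

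Nfkbiz (ENSMUSG00000035356; chromosome 16, 55811491 to 55838967, minus strand) encodes I-kappa-B zeta, a nuclear member of the family that can help transcription of secondary response genes. Wild-type cells had 192.5 units under mock and 222 with IL-10, while knockout cells had 167 and 182.5. IL-10 groups were above the mock group of the same genotype, with log2 ratios of 0.18 and 0.11. Nfkbib (ENSMUSG00000030595; chromosome 7, 29543270 to 29551659, minus strand), which encodes I-kappa-B beta, an inhibitor that is resynthesized slowly, had 1230.0 units under mock and 1251 with IL-10 in wild-type cells, and 1556 and 1500.0 in knockout cells. The log2 ratios with IL-10 were 0.02 and -0.05, and its groups were ordered by genotype rather than by treatment.

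**Figure D2:**
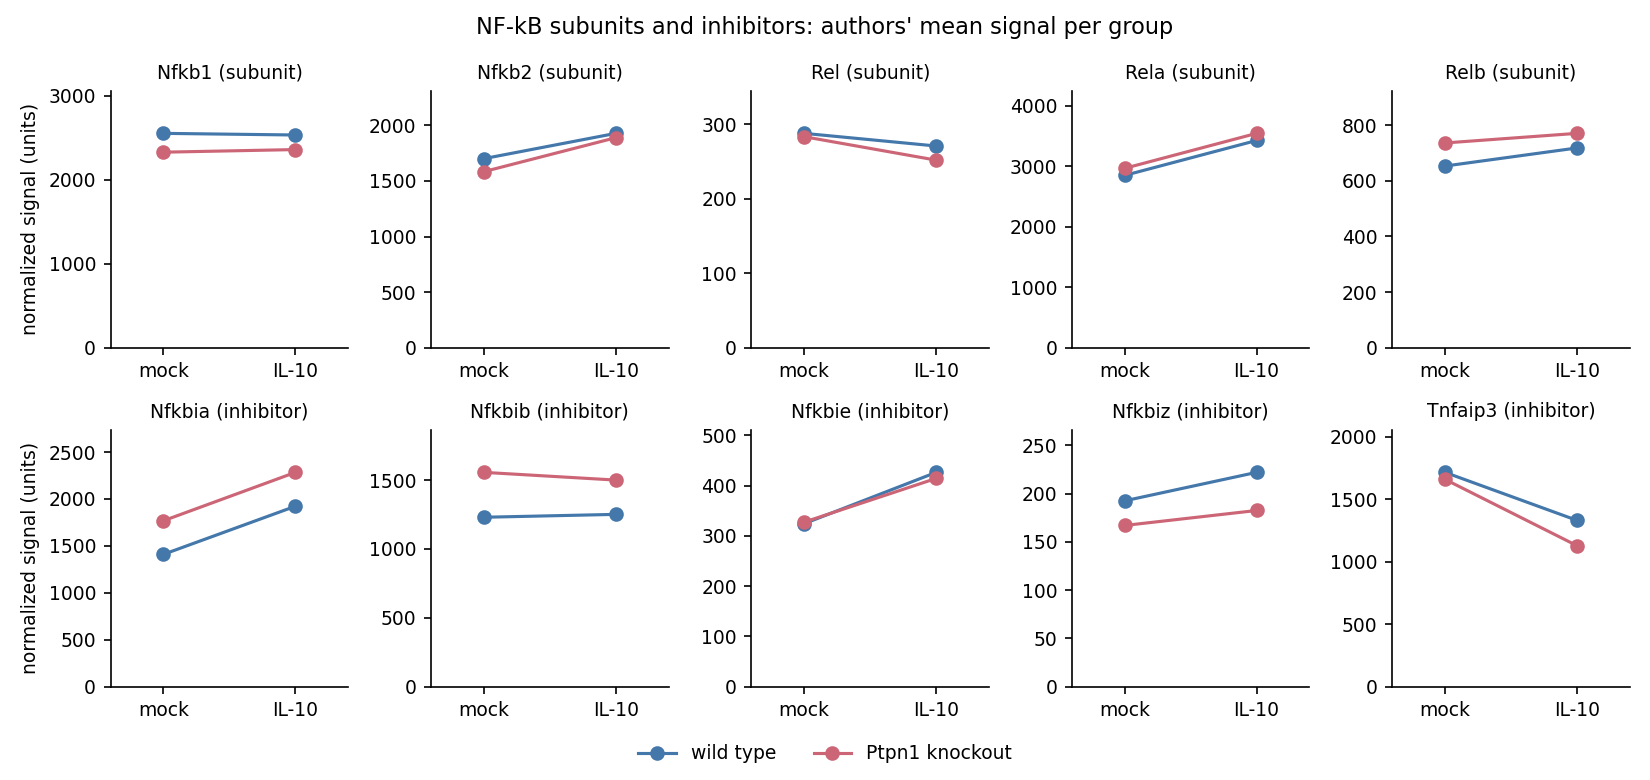
Authors' mean signal (units, y axes from 0, 1 scale per gene) of each member under mock and IL-10, with wild type in blue and Ptpn1 knockout in red. Each point is 1 deposited group value without error bars, and lines join the treatments of a genotype. Nfkbia and Nfkbie slope up, Tnfaip3 slopes down, and Nfkbib is separated by genotype.

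Among the subunits, Rela (ENSMUSG00000024927; chromosome 19, 5637483 to 5648130, plus strand) encodes p65, the main activating subunit of the classical dimer. Its signal went from 2849 units under mock to 3427 with IL-10 in wild-type cells and from 2966 to 3544.5 in knockout cells, with both IL-10 groups above both mock groups. Its log2 ratios were 0.264 and 0.255, larger than those of 93.3% and 91.9% of kept genes. Nfkb2 (ENSMUSG00000025225; chromosome 19, 46380488 to 46386384, plus strand) encodes p100, the precursor of p52 in the alternative pathway, which can also act as an inhibitor. Wild-type cells had 1701 units under mock and 1928.5 with IL-10, and knockout cells 1584 and 1889.5, again with both IL-10 groups highest. Its log2 ratios were 0.18 and 0.25. The row spans 51.7% of the RefSeq gene.

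Relb (ENSMUSG00000002983; chromosome 7, 20191566 to 20214787, minus strand) encodes the partner of p52 in the alternative pathway. Its signal was 653 units under mock and 718 with IL-10 in wild-type cells, and 736 and 770.5 in knockout cells, for log2 ratios of 0.13 and 0.06. The knockout groups were the 2 highest. Nfkb1 (ENSMUSG00000028163; chromosome 3, 135248242 to 135330763, minus strand) encodes p105, which is processed to the DNA-binding subunit p50. It had the narrowest range of the members on the log2 scale, with 2551 units under mock and 2531.5 with IL-10 in wild-type cells and 2327 and 2358 in knockout cells. Its log2 ratios with IL-10 were -0.01 and 0.02. Its row spans 76.9% of the RefSeq gene. Rel (ENSMUSG00000020275; chromosome 11, 23641514 to 23670970, minus strand) encodes c-Rel, a subunit known for activating cytokine genes in myeloid and lymphoid cells. Mock and IL-10 signals were 288 and 271 units in wild-type cells and 283.5 and 252 in knockout cells, for log2 ratios of -0.08 and -0.15. With the trend of the ratios over transcript length subtracted, the wild-type value was 0.03, so no direction is given for Rel there. No spread is known, so it cannot be said which neighbours in these orders differ.

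**Figure D3:**
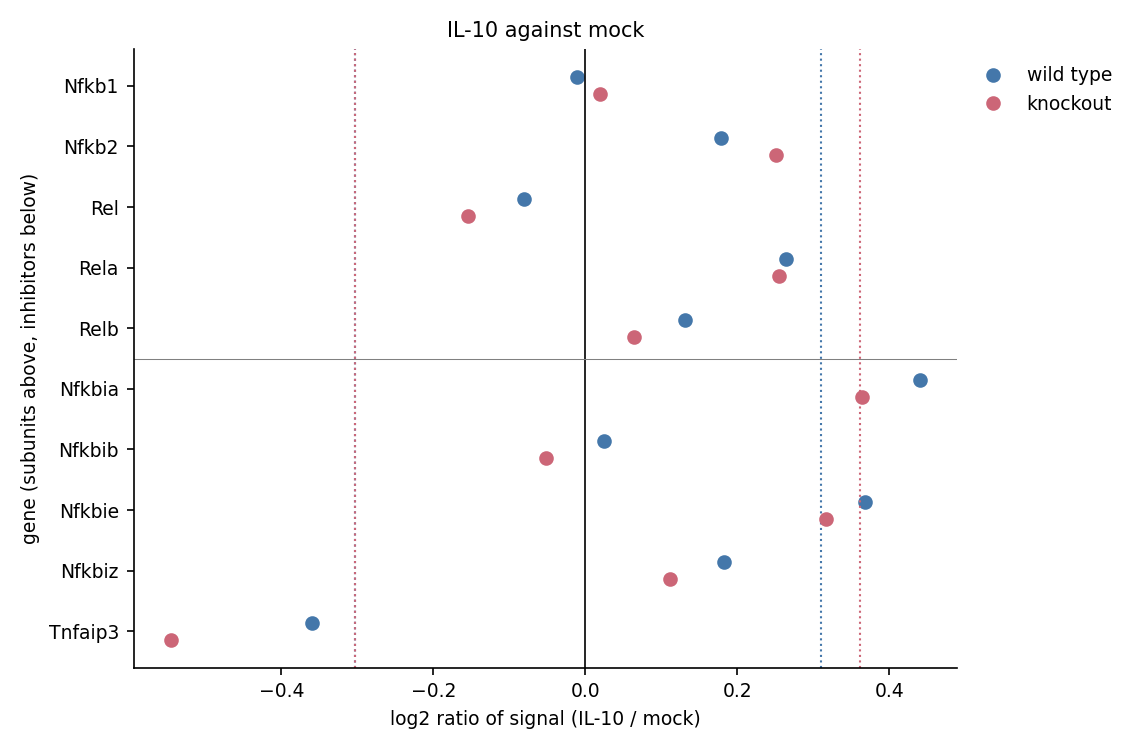
Log2 ratio of signal, IL-10 against mock, for the 5 subunits (above the grey line) and the 5 inhibitors (below it), in wild type (blue) and knockout (red). Dotted lines mark the 5th and 95th percentiles of the 11400 kept genes in each genotype, and the lower pair coincides. Tnfaip3 lies below the 5th percentile in both genotypes, Nfkbia lies above the 95th in both, and Nfkbie does so in wild type.

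Between the knockout and wild-type columns the ratios of largest size under mock were those of the classical inhibitors Nfkbib and Nfkbia, and with IL-10 Nfkbib, Nfkbiz, Nfkbia and Tnfaip3 were close in size. Under mock treatment Nfkbib had a log2 ratio of knockout to wild type of 0.33 and Nfkbia of 0.32, higher than those of 93.5% and 93.0% of kept genes. With IL-10 the values were 0.257 and 0.245. Nfkbiz was lower in the knockout under both treatments, with log2 ratios of -0.18 and -0.25, and so was Nfkb1, with -0.13 and -0.10. Relb had 0.17 and 0.10. Tnfaip3 had -0.05 under mock and -0.23 with IL-10. Nfkbie and Rela lay between -0.04 and 0.06 under both treatments. Nfkb2 had -0.10 and -0.03, and Rel -0.02 and -0.10. Of the 10 members 5 were above 0 under mock, beside 53.5% of kept genes, and 4 with IL-10, beside 51.8%, and the medians were 0.00 and -0.03. No member reached 1.5-fold, which 1.43% of kept genes reached upward and 1.4% downward under mock, and 1.8% and 0.991% with IL-10. At 1.25-fold 1 member, Nfkbib, was higher under mock, beside 6.92% of kept genes, and 0 were lower, beside 7.35%. With IL-10 neither direction was reached by any member, beside 5.57% and 5.61%. These counts lie near the share of all kept genes.

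Across kept genes the ratio of knockout to wild type moved with transcript length: its median under mock was 0.15 over the 2799 genes with the shortest transcripts and -0.15 over the 2800 with the longest (0.09 and -0.09 with IL-10). Nfkbia, with 1578 bases in its longest GENCODE M21 transcript, and Nfkbib, with 2061, have the shortest transcripts of the members. With the trend over length subtracted the mock values were 0.17 for Nfkbia and 0.22 for Nfkbib, so that Nfkbib was short of 1.25-fold, and those with IL-10 were 0.16 and 0.19. Nfkbiz then had -0.16 under mock, close in size to Nfkbia, and -0.23 with IL-10, the largest size of any member there. The part of length in the result was not tested beyond this. The sign under mock turned for Rel (0.15), Rela (-0.02), Nfkbie (-0.04) and Tnfaip3 (0.08), the last by a transcript length longer than its row. Marker lists of cell types also differed by genotype. Macrophage markers had a median log2 ratio of -0.14 (-0.12 with IL-10) but went opposite ways: under mock Lyz2 had -1.41 and Itgam -0.38, while Fcgr1 had 0.79, Cd68 0.27 and Emr1 0.06. Their sum was 643396.5 units in mock-treated wild-type cells and 458109.5 in mock-treated knockout cells (550828 and 457681.5 with IL-10). Without Lyz2 it was 280778.5 and 321258 units (278015 and 320830.0 with IL-10). Lyz2 in mock-treated wild type stood at 362618 units, the column's highest value, held by 8 rows. It had 136851.5 units in both knockout groups. Cd68 had 226524 in both wild-type groups and 272612 in both knockout groups. Values at such top ranks are shared, so the sizes of these ratios and sums are coarse. All 9 markers of mesothelial cells and fibroblasts were lower in the mock-treated knockout, with a median log2 ratio of -0.62 and summed signals of 33733.5 units in wild-type cells and 20353.5 in knockout cells (32346 and 20230.5 with IL-10). With IL-10 8 of the 9 were lower, and Msln had a ratio of 0. Of kept genes 53.5% had a knockout to wild type ratio above 0 under mock and 51.8% with IL-10. All 5 monocyte markers had a ratio above 0 under mock and 4 of 5 with IL-10, with a median of 0.61 under mock and sums of 798 and 1150.5 units (1383 and 1779 with IL-10). Monocyte markers also differed with IL-10 within a genotype, where their median log2 ratio was 0.63 in wild-type cells and 0.44 in knockout cells. Mast cell markers, 6 of 6 with a row, summed to between 330.0 and 554 units over the 4 groups, with both knockout groups highest. Of B cell markers 4 of 6 had a row, with sums from 274 to 467.5 units and both knockout groups lowest. Neutrophil markers, 4 of 6 with a row, summed under mock and IL-10 to 106 and 107.5 units in wild-type cells. In knockout cells their sums were 199 and 224.5. Dendritic cell markers had a row for 2 of 6, with sums from 95.5 to 155, and NK cell markers for 0 of 4. Of T cell markers 2 of 7 had a row, with sums from 27 to 156 units. Of these, Lck went from 11.5 units to 105 with IL-10 in wild-type cells and from 10 to 128 in knockout cells, while Cd5 went from 15.5 to 11 and from 31 to 28. The part of other cells in the members' values was not tested, and in bulk RNA fewer cells of a type and less RNA per cell cannot be told apart.

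**Figure D4:**
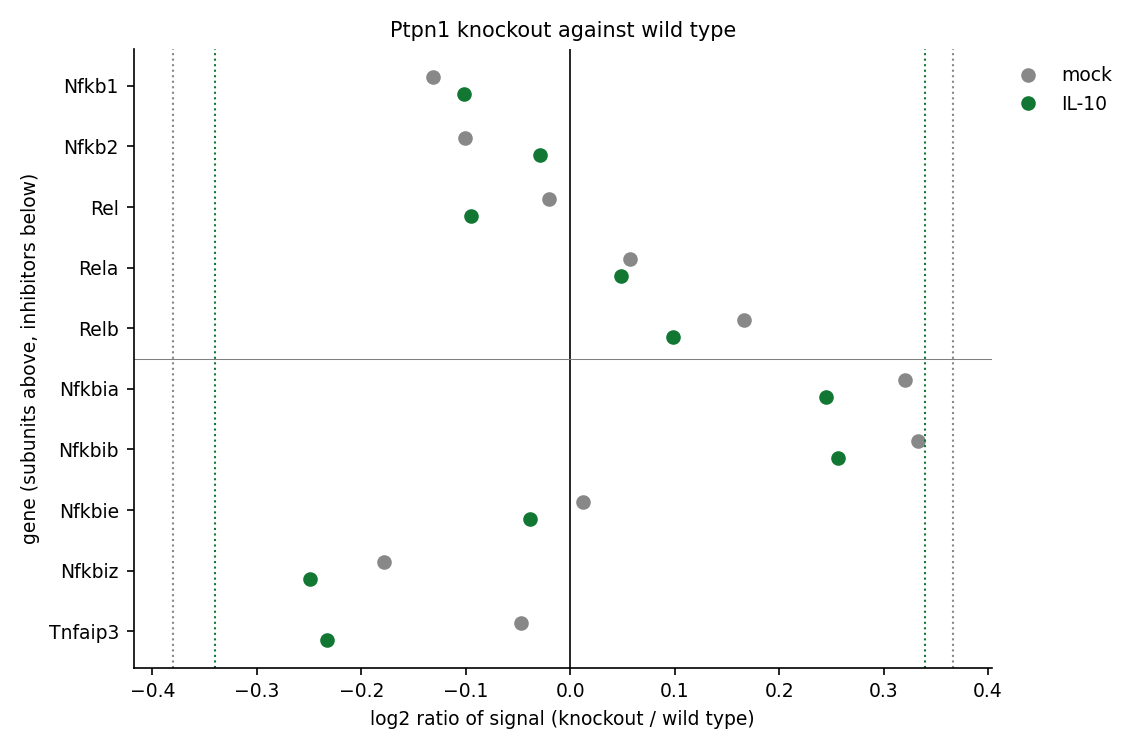
Log2 ratio of signal, Ptpn1 knockout against wild type, for the 5 subunits (above the grey line) and the 5 inhibitors (below it), under mock (grey) and IL-10 (green). Dotted lines mark the 5th and 95th percentiles of the 11400 kept genes under each treatment. All points lie between those lines, with Nfkbia and Nfkbib furthest to the right and Nfkbiz and Tnfaip3 furthest to the left with IL-10.

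Whether the response to IL-10 itself differed without Ptpn1 is asked by subtracting each gene's wild-type log2 ratio from its knockout one. All 5 inhibitors had the lower ratio in the knockout, with differences of -0.19 for Tnfaip3, -0.08 for Nfkbia, -0.08 for Nfkbib, -0.07 for Nfkbiz and -0.05 for Nfkbie. Subunits were divided, with Nfkb2 at 0.07, Nfkb1 at 0.03, Rela at -0.01, Relb at -0.07 and Rel at -0.07. In all 2 of 10 members were above 0, beside 48.7% of kept genes, and their median was -0.07, beside 0.00 over all kept genes. With the length trend subtracted the median was -0.03, and Nfkbia and Nfkbie stood at -0.01 and -0.02. No inhibitor changed sign then. Tnfaip3 ratios with IL-10 were still apart, at -0.27 in wild type and -0.50 in the knockout, by a length longer than its row. No member reached 1.25-fold, which 3.59% of kept genes reached upward and 2.96% downward. For Tnfaip3, 11.8% of kept genes lay lower. The sizes are small and no replicate spread is known for them.

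Other genes of the pathway were mostly level with IL-10, with a few genes apart. Of the 48 genes in the lists of other I-kappa-B proteins, IKK-related kinases, adaptors and ubiquitin editors, all with a row, 2 were at least 1.5-fold higher with IL-10 in each genotype (Bcl3 and Myd88) and 1 at least 1.5-fold lower (Malt1). Of kept genes 1.54% and 0.412% were past 1.5-fold upward and downward in wild type, and 2.32% and 0.807% in knockout cells. At 1.25-fold 4 of the 48 were higher and 1 lower in wild-type cells, beside the 4.65% and 4.24% of kept genes given above, and 5 were higher and 2 lower in knockout cells, beside 5.95% and 4.46%. Their medians were 0.01 in wild-type cells and -0.01 in knockout cells. Bcl3, a nuclear I-kappa-B protein that binds p50 and p52, had 825 units under mock and 1862 with IL-10 in wild-type cells, and 803.5 and 2537 in knockout cells. Its log2 ratios, 1.149 and 1.63, exceeded those of all 5 inhibitors among the members. Nfkbid, another nuclear I-kappa-B gene, went the other way, from 677.5 units to 554.5 in wild-type cells and from 675.5 to 496.5 in knockout cells, for log2 ratios of -0.28 and -0.42. Of the 5 genes in that list, Nfkbil1 and the I-kappa-B-binding Ras-like Nkiras1 and Nkiras2 lay between -0.19 and 0.06.

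The kinases that act on the inhibitors were nearly level with IL-10. Chuk, which encodes IKK alpha, had log2 ratios of -0.02 in wild-type cells and 0.05 in knockout cells. Ikbkb, which encodes IKK beta, had -0.12 and -0.10, and Ikbkg, which encodes the scaffold NEMO, had -0.07 and -0.01. Between genotypes Ikbkb had -0.19 under mock and -0.18 with IL-10, and the kinase gene Ikbke had -0.24 and -0.31. None of the 12 kinase-list genes reached 1.25-fold in wild type, and 1 did in the knockout: Map3k14, which encodes NIK, the kinase of the alternative pathway, at 256 and 352.5 units, a log2 ratio of 0.42 beside 0.10 in wild type. Upward past 1.25-fold were 4.65% of kept genes in wild type and 5.95% in the knockout, and downward 4.24% and 4.46%. Tank had 0.22 in wild type and Map3k8 0.27 in the knockout.

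Among 16 adaptors, Myd88, the adaptor of most Toll-like receptors and of the IL-1 receptor, went from 1270.0 units to 2164 in wild-type cells and from 1520.5 to 2965 in knockout cells, for log2 ratios of 0.76 and 0.95. Malt1, the paracaspase that cleaves A20 among other substrates, went from 2570.0 units to 1571.5 in wild-type cells and from 2382 to 1505 in knockout cells, for log2 ratios of -0.70 and -0.65. Birc3, which encodes cIAP2, had 0.38 and 0.45. Of the 15 ubiquitin-editing genes, Tnip2, which encodes a partner of A20, was the 1 past 1.25-fold in each genotype, from 731.5 units to 1053 in wild-type cells and from 871.5 to 1280.5 in knockout cells. Of kept genes 4.65% in wild type and 5.95% in the knockout were past that limit upward, and 4.24% and 4.46% downward. Otud7b had -0.24 and -0.21, Itch -0.17 in wild type and Zfand5 0.26 in the knockout. Between genotypes no gene of the 48 reached 1.25-fold under mock, beside 6.92% of kept genes upward and 7.35% downward. With IL-10 Bcl3 and Myd88 did upward, with log2 ratios of 0.44 and 0.45, and 0 downward. These 2 of 48 lie near the 5.57% of kept genes past that limit upward, and 5.61% were past it downward. Largest in size among the 48 under mock were Tank (0.27), Myd88 (0.25) and Fam105b (0.25). In the difference between responses, Bcl3 (0.48) and Map3k14 (0.32) were past 1.25-fold upward and Irak3 (-0.35), which encodes an inhibitory IRAK, downward. These 2 and 1 of 48 lie near the 3.59% and 2.96% of kept genes past that limit upward and downward.

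**Figure D5:**
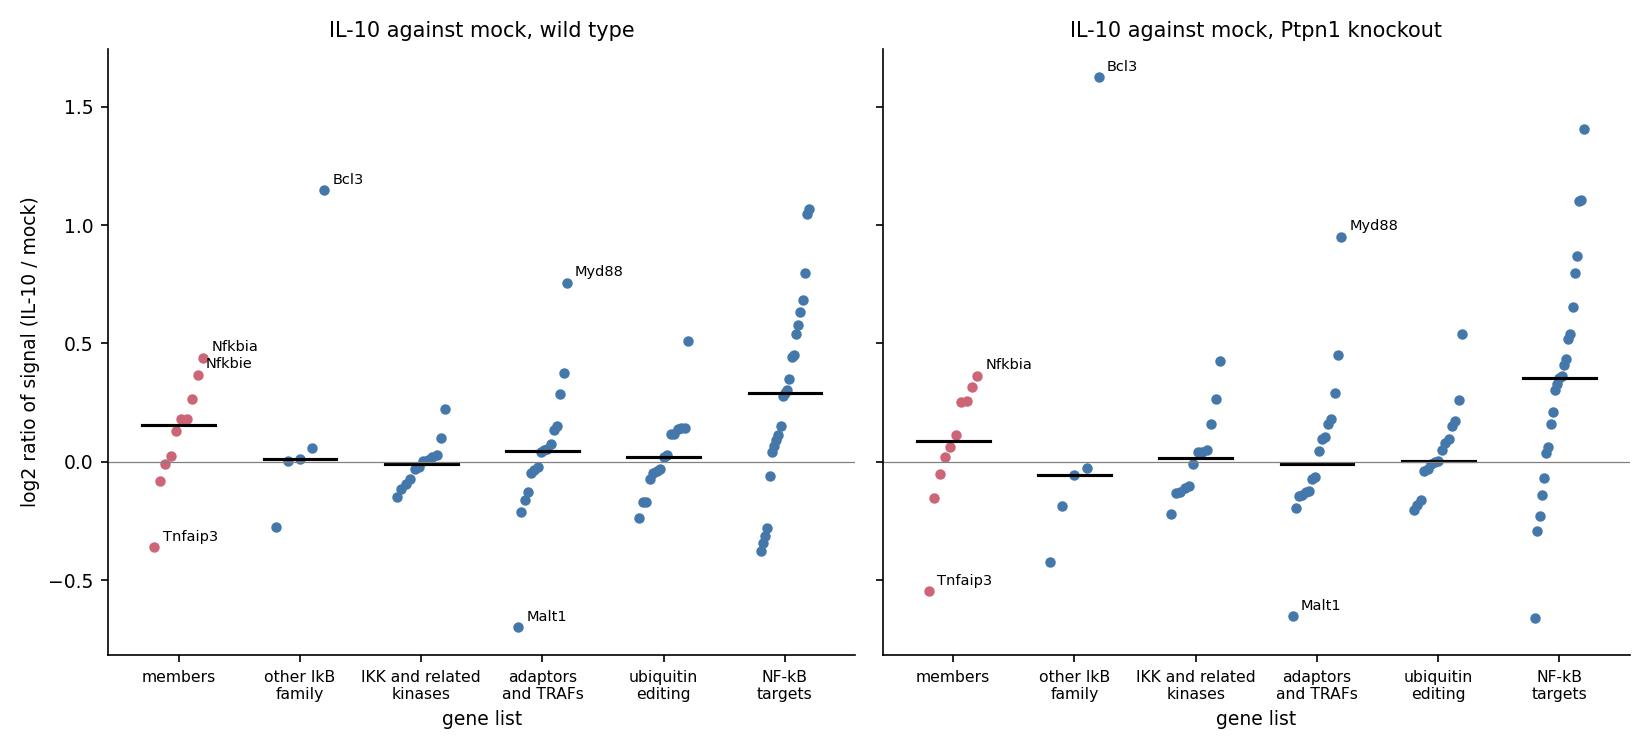
Log2 ratio of signal, IL-10 against mock, for the 10 members (red) and for genes of the other lists (blue), in wild type (left) and knockout (right). Each point is 1 gene, points of a list are spread sideways in order of value, and black bars are list medians. Names are given for members past 1.25-fold and for genes of the pathway lists past 1.5-fold, and target genes are not named. Bcl3 and Myd88 lie highest and Malt1 lowest among the pathway lists.

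A list of well-known NF-kB target genes had a higher median than the members. Of its 26 genes 23 had a row, and Il6, Nos2 and Il12b were not analysed here. Its median log2 ratio with IL-10 was 0.29 in wild-type cells and 0.35 in knockout cells, with 18 of 23 above 0 in each, beside 49.6% and 45.2% of kept genes. At least 1.5-fold higher were 5 of 23 in wild-type cells and 6 in knockout cells, beside 1.54% and 2.32% of kept genes, and 0 and 1 were lower, beside 0.412% and 0.807%. Ccl4, a chemokine gene, went from 206.5 units to 462 in wild-type cells and from 285.5 to 800.5 in knockout cells. Il1b, the gene of interleukin-1 beta, had log2 ratios of 1.05 and 1.11, from low signals of 9.5 units under mock and 48 with IL-10 in wild-type cells, and 14 and 61 in knockout cells. Cd40, a costimulatory receptor gene, had 0.80 and 1.10. Ccrl2, named after its value was seen, was the gene at least 1.5-fold lower with IL-10 in knockout cells, with -0.66 beside -0.38 in wild-type cells. Knockout to wild type, the median was 0.20 under mock and 0.20 with IL-10, with 18 and 19 of 23 above 0, beside 53.5% and 51.8% of kept genes. Over the 2799 kept genes with the shortest transcripts that median was 0.15 under mock and 0.09 with IL-10. The part of transcript length in the values of the target list was not tested. Of the list, Tnf had knockout to wild type log2 ratios of 0.50 and 0.55, Cd40 0.51 and 0.82 and Ccl5 0.45 and 0.81. Most of these genes also respond to other factors, interferon-activated STATs among them, so the list is no measure of NF-kB alone.

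The members with the widest range over the 4 columns were Nfkbia, Tnfaip3 and Nfkbie. Among 9408 other genes with a mean of at least 134 units, those with the pattern most like Nfkbia, by Euclidean distance between centred log2 values over 4 columns, were Odc1 (0.017), Id2 (0.050), Pak1ip1 (0.052), Tpi1 (0.053) and Tmem140 (0.060). Odc1 went from 1867 units to 2511 in wild-type cells and from 2338.5 to 2986 in knockout cells. For Tnfaip3 the nearest were Tpcn1 (0.034), Arhgap25 (0.035), Osbpl3 (0.037), Cnr2 (0.052) and Daglb (0.054), and for Nfkbie they were Enpp1 (0.029), Cd302 (0.039), Mtmr10 (0.039), Smc1a (0.043) and Nup62 (0.045). With 4 values per gene such likeness is a description of these columns.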

How the data were processed

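RNA-seq of 8 samples in 4 groups of 2 was used. Per the submitters' processing notes, the tools were RSEM and Bowtie and the genome build mm9, with no version or role stated. How genes were annotated and values normalized is not given in the sources used here. Deposited by the authors was 1 normalized signal per gene and group, in a file named for CPM. Each column nevertheless sums to 26705598, and all values are multiples of 0.5, so the values are neither CPM nor raw counts. The sorted columns nearly coincide and share their highest value (362618), as quantile normalization of libraries followed by averaging would give. That step is inferred from the numbers and is stated nowhere in the sources used here. It would hide depth, make values depend on rank and remove changes shared by most genes.

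Log2 ratios were computed with Python 3.11.15, numpy 2.4.6 and pandas 2.3.3, after adding a pseudocount of 26.7 units, which is 1 ppm of a column's sum, over the 11400 genes with a mean of at least 1 ppm. The coding of the ratios was checked on simulated columns without noise, in which ratios set beforehand were recovered. Replicate error, low genes and normalization were not simulated. A linear model, planned in case of values per library, was not applicable to 1 value per group. Limits of 1.5-fold and, added after seeing the values, 1.25-fold describe size. Every member is named, and of each other list up to 3 genes with the largest ratios, plus Bcl3, Nfkbid and the IKK genes. Where a name stood on several rows (38 names, no member) the highest row was used. Length trends were fitted by lowess (statsmodels 0.14.6, fraction 0.3) on the longest GENCODE M21 transcript, known for 98.4% of kept genes. Coordinates of genes are those of the deposited table (mm9) and those of promoters are RefSeq's (GRCm38.p6), and none were converted. The members and lists were chosen with earlier results of these data known.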

Additional observations from a re-analysis of the deposited data

How the results depend on the processing

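No paired analysis was possible because the table used here has 1 value per group and no column per replicate, and for the same reason no replicate could be left out. With neither, the spread between samples limits every statement. Under a pseudocount of 0.25 or 4 ppm, no filter, a filter at 5 ppm, the median of all kept genes subtracted, the length trend subtracted, and rows of a name summed, no member reached 1.5-fold in any of the 5 comparisons. No member past 1.25-fold changed sign. Counts at 1.25-fold turned on members close to that limit. In wild type with IL-10, 1 member was higher (in place of 2) with 4 ppm. There 0 were lower (in place of 1) with the length trend subtracted, when Tnfaip3 stood at -0.27. That value rests on a transcript length longer than the Tnfaip3 row. In the knockout with IL-10, 2 were higher (in place of 1) with 0.25 ppm, with the median subtracted and with the length trend subtracted. For the mock-treated knockout against wild type, 2 were higher (in place of 1) with 0.25 ppm, and 0 with 4 ppm, with the median subtracted and with the length trend subtracted. Of 50 member values, 9 changed sign with the length trend subtracted and 1 with the median subtracted, all of them under 0.1 in size before. Among the 7382 genes in the members' range of mean signal, an alternative chosen after seeing the data, the shares past 1.25-fold upward and downward with IL-10 were 3.83% and 3.60% in wild-type cells, beside 5.13% and 3.54% in knockout cells.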
